A study of Adonis amurensis with 6 samples.

Results

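Alternative oxidases and uncoupling proteins let plant mitochondria respire without making ATP, and their unigenes were followed here through flowering of Adonis amurensis, a perennial herb that blooms in early spring. Members were all unigenes whose best Swiss-Prot match is named alternative oxidase, ubiquinol oxidase (the Swiss-Prot name of the alternative oxidases) or uncoupling protein. The rule found 39 of 190353 unigenes, of which 10 were alternative oxidases and 29 were uncoupling proteins. A unigene is a transcript contig, or one of a cluster of similar contigs, that the authors assembled from the reads without a genome.

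The libraries came from floral organs of plants grown in an open field and collected at 6 developmental stages, with 1 library per stage. The stages were flower bud differentiation (FBD), young alabastrum, meaning a young closed bud (YA), the bud once color is visible (VCA), early flowering (EFS), the flower in full bloom (FBS) and the senescing flower (SFS), and the labels give the tissue as flower bud for FBD, YA and VCA and as flower for EFS, FBS and SFS. No treatment, genotype or number of plants per library is given in the labels. Since no stage has a replicate, the differences below have no measure of variation between plants beside them, and no test was made. Values are FPKM, fragments mapped per kilobase of unigene, scaled to the size of the library, which already corrects for unigene length. Ratios are log2(FPKM + 0.1) of the later over the earlier stage, and only ratios of at least 2-fold are called rises or falls.

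In plant mitochondria, the respiratory chain passes electrons through ubiquinone, complex III, cytochrome c and complex IV to oxygen, and the protons pumped on the way drive ATP synthase. Alternative oxidase takes electrons from ubiquinol straight to oxygen without pumping protons, so the energy leaves as heat, and it is known from flowers that warm themselves, such as those of aroids and sacred lotus, and from responses to cold and oxidative stress in non-thermogenic plants. Its plastid relative, the plastid terminal oxidase (PTOX), oxidises plastoquinol and works with the desaturases of carotenoid synthesis. Uncoupling proteins belong to the mitochondrial carrier family. They can let protons back across the inner membrane, and several plant members also carry dicarboxylates or amino acids.

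The FBD library stood apart from the other 5 before any family was examined. Unigenes whose FBD value was at least 20-fold above their mean over the other stages held 98.4% of all FPKM in FBD. In each other library they held between 0.059% and 0.069% of the FPKM. FBD is therefore given beside the other stages and is never the base of a ratio between stages. The deposited FPKM summed to between 724656 and 755345 per library, the estimated depth relative to YA ran from 0.804 at FBD to 1.15 at EFS, and between 72765 and 84815 unigenes were above 0. The floral identity list of 28 unigenes (the petal, stamen and carpel regulators APETALA 3, PISTILLATA, AGAMOUS and their relatives) summed to 347 FPKM at FBD and to between 696 and 1361 FPKM in the other stages. Scaling the libraries by their median ratio would add 0.46 to log2 ratios of SFS over YA and 0.18 to those of SFS over FBS, and scaling by actin would add 0.96 and 0.59, or less for low values because of the added 0.1. In bulk tissue, fewer cells of a type and less RNA per cell cannot be told apart.

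The alternative oxidases were highest at full bloom. Their summed FPKM was 47.0 at FBD, 79.2 at YA, 77.7 at VCA, 104 at EFS, 384 at FBS and 245 at SFS. VCA over YA was log2 -0.03 for the whole sum, -1.13 without the plastid type, 0.37 without the weakly matched AOX1c and -0.06 without both. The sum rose 3.71-fold (log2 1.89) in FBS over EFS. In SFS it was at 0.64 times its FBS level (log2 -0.65), which is less than 2-fold, and it remained 3.09-fold above YA (log2 1.63). FBS over YA was 4.85-fold (log2 2.28). Between EFS and FBS, 6 of the 10 unigenes had at least 1 FPKM in either stage, and 4 of them rose and 1 fell. The 4 that rose were CL18079.Contig1, CL18079.Contig3, Unigene24328 and CL20369.Contig2. The CL18079 contigs belong to the same cluster, as does CL18079.Contig4, which changed by less than 2-fold. The 1 that fell was CL992.Contig1, a weakly matched AOX1c contig. Over all 65397 unigenes that passed this filter, 33.1% rose and 32.5% fell in FBS over EFS. The median log2 ratio was 1.41 for the alternative oxidases and 0.02 for all unigenes.

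AOX1a had the steepest rise. Alternative oxidase 1a is the isoform best known for its induction by stress in Arabidopsis. Its 3 unigenes belong to 1 contig cluster, CL18079, and their sum was 0.22 FPKM at FBD, 8.07 at YA, 7.16 at VCA, 12.2 at EFS, 153 at FBS and 61.5 at SFS. The step to full bloom was 12.5-fold (log2 3.64), the level in SFS was 0.40 times that in FBS (log2 -1.31, and -0.72 with actin scaling, less than 2-fold), and SFS stayed 7.54-fold above YA. The rise to full bloom lay between log2 3.56 and 4.18 under all 4 other scalings of the libraries.

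A single contig carried most of the AOX1a signal at full bloom. CL18079.Contig1 had 0.22 FPKM at FBD, 4.2 at YA, 3.23 at VCA, 6.30 at EFS, 141 at FBS and 44.1 at SFS. CL18079.Contig4 was listed at 0 at FBD and had 2.63 at YA, 2.27 at VCA, 4 at EFS, 5.67 at FBS and 14.2 FPKM at SFS. Contig1 made up 92.4% of the cluster in FBS, and between 45.1% and 71.7% in the other 4 stages from YA on. The remaining contig, CL18079.Contig3, was listed at 0 at FBD and had 1.24 at YA, 1.66 at VCA, 1.86 at EFS, 5.95 at FBS and 3.20 FPKM at SFS. RSEM divides reads among contigs that resemble each other, so the cluster sum is firmer than the value of a single contig.

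AOX2 also rose at full bloom, and it was highest in the senescing flower. Unigene24328, whose best match is the soybean alternative oxidase 2, had 0.32 FPKM at FBD, 8.78 at YA, 9 at VCA, 17.3 at EFS, 80.0 at FBS and 109 at SFS. It rose 4.6-fold in FBS over EFS (log2 2.20), and SFS was 12.3-fold above YA (log2 3.62). SFS over FBS was log2 0.45, less than 2-fold. Scaling by actin took that last ratio to 1.04. AOX1a was at 153 FPKM and AOX2 at 80.0 FPKM at FBS, while in SFS AOX1a was at 61.5 FPKM and AOX2 at 109 FPKM, so the order of these length-corrected levels differed between the stages.

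**Figure D1:**
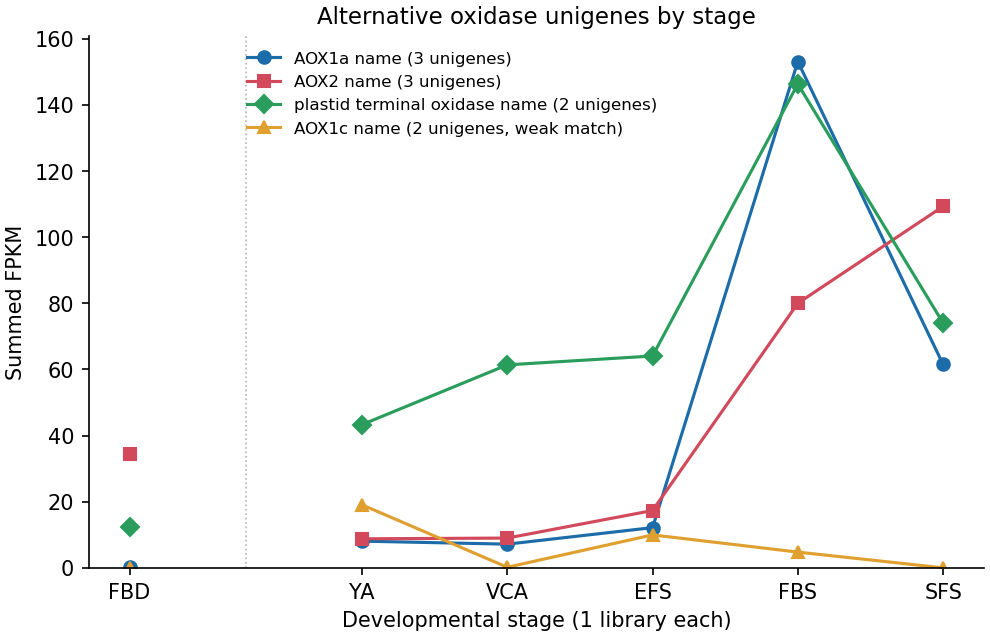
Summed FPKM (linear axis) of the alternative oxidase unigenes by their Swiss-Prot name against developmental stage, with FBD left of the dotted line and each point 1 library. AOX1a and PTOX peaked in FBS at 153 and 146 FPKM, and AOX2 reached 109 FPKM at SFS.

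Taken as 1 group, AOX1a and AOX2 were the mitochondrial members with strong matches, each with an E-value of at most 1e-134. Their 6 unigenes summed to 34.6 FPKM at FBD, 16.9 at YA, 16.2 at VCA, 29.5 at EFS, 233 at FBS and 171 at SFS. FBS over YA was 13.8-fold (log2 3.78), and SFS over YA was 10.1-fold (log2 3.33). Nearly all of the FBD value came from unigenes named AOX2 that were listed at 0 in the other stages. The split into AOX1a and AOX2 follows the Swiss-Prot names, and Nr calls the AOX1a contig CL18079.Contig3 a ubiquinol oxidase 2.

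AOX1c was named only by weak matches. CL992.Contig1 was listed at 0 at FBD, 14.6 FPKM at YA, 0 at VCA, 9.18 at EFS, 4.10 at FBS and 0 at SFS. CL992.Contig2 had 0 FPKM at FBD, 4.47 at YA, 0.17 at VCA, 0.78 at EFS, 0.66 at FBS and 0 at SFS. Both contigs were highest in YA, and their E-values of 3.2e-17 and 1.4e-14 were the only ones above 1e-20 among the alternative oxidases. Neither has an alternative oxidase domain in InterPro, and KEGG orthology gives Contig2 another identity, inorganic pyrophosphatase. They took 1.24% of the family sum at FBS, against 24.1% at YA, and they are the 2 alternative oxidases that fell in VCA over YA.

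The plastid terminal oxidase made up most of the alternative oxidase sum in YA, VCA and EFS. CL20369.Contig2, matched to Arabidopsis ubiquinol oxidase 4 of the plastid, had 0.20 FPKM at FBD, 43.3 at YA, 61.4 at VCA, 64.1 at EFS, 146 at FBS and 74.1 at SFS. It rose 2.28-fold in FBS over EFS (log2 1.19). SFS over FBS was 0.51-fold (log2 -0.98), just inside the 2-fold limit, and EFS over VCA changed sign with the scaling, from log2 0.06 as deposited to -0.10 with actin. PTOX made up 54.7% of the alternative oxidase sum in YA, 79.0% at VCA and 61.9% at EFS, but 38.1% at FBS and 30.2% at SFS.

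The desaturases that pass electrons to plastoquinone, and so depend on PTOX in Arabidopsis, did not show this step. Their 15 unigenes summed to 51.9 FPKM at FBD, 178 at YA, 158 at VCA, 207 at EFS, 229 at FBS and 236 at SFS, a log2 ratio of 0.14 at FBS over EFS. Of 5 unigenes that passed the filter, 1 rose and none fell, beside 33.1% and 32.5% of all unigenes. The highest zeta-carotene desaturase, CL3856.Contig1, had 0.48 FPKM at FBD, 81.2 at YA, 87.7 at VCA, 116 at EFS, 155 at FBS and 124 at SFS. The highest phytoene desaturase (named phytoene dehydrogenase), Unigene33350, had 0.18 FPKM at FBD, 84.4 at YA, 62.1 at VCA, 86.3 at EFS, 67.1 at FBS and 110 at SFS.

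Green tissue markers fell in FBS over EFS (log2 -1.23), where the alternative oxidase sum rose. In SFS over FBS they rose (log2 1.70). At that step the alternative oxidase sum (log2 -0.65) and AOX2 (log2 0.45) as deposited changed by less than 2-fold. The 107 chlorophyll a-b binding protein and Rubisco small chain unigenes summed to 5563 FPKM at FBD, 10000 at YA, 12878 at VCA, 12542 at EFS, 5336 at FBS and 17314 at SFS. Of 56 tested between EFS and FBS, 3 rose and 31 fell, beside 33.1% and 32.5% of all unigenes. Of 53 tested between FBS and SFS, 37 rose and 3 fell, beside 29.1% and 35.8%. The highest green tissue unigene, CL5355.Contig9 (a chlorophyll a-b binding protein), was at 859 FPKM at FBS, against 2336 at EFS. The 144 unigenes with pollen, anther, tapetum or exine names summed to 654 FPKM at FBD, 2097 at YA, 2276 at VCA, 4390 at EFS, 3322 at FBS and 2751 at SFS. In FBS over EFS, 22 of 74 were higher and 26 lower, close to the shares of all unigenes. The part of these tissues in the alternative oxidase values was not tested.

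The uncoupling proteins formed a flatter series. Their summed FPKM was 127 at FBD, 113 at YA, 109 at VCA, 182 at EFS, 193 at FBS and 93.5 at SFS. The sum was 1.67-fold higher in EFS than in VCA (log2 0.74) and 1.06-fold higher in FBS than in EFS (log2 0.08), neither past 2-fold. The first of these rested on UCP5, since it was log2 -0.75 without the UCP5 contig CL6933.Contig2 and -0.40 over UCP1 to UCP3 alone. In SFS over FBS it fell to 0.49-fold (log2 -1.04). This fall was close to the limit, and it was -0.86 after scaling by the median ratio and -0.45 after scaling by actin. SFS over YA was log2 -0.28, and it was positive, at 0.18 and 0.68, after the same scalings.

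UCP5 made the bloom-stage maximum of the family. In Arabidopsis this protein is also known as a mitochondrial dicarboxylate carrier, and all 7 UCP5 unigenes carry a KEGG orthology of an oxoglutarate carrier. They summed to 54.4 FPKM at FBD, 52.3 at YA, 42.6 at VCA, 132 at EFS, 161 at FBS and 61.4 at SFS. The sum rose 3.09-fold in EFS over VCA (log2 1.63) and fell to 0.38-fold in SFS over FBS (log2 -1.39, and -0.80 with actin scaling). UCP5 made up 39.1% of the uncoupling protein sum in VCA, 72.4% at EFS, 83.4% at FBS and 65.7% at SFS.

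From YA to SFS, nearly all of the UCP5 signal lay in the 2 contigs of cluster CL6933, and these moved in different ways. CL6933.Contig2 had 0.42 FPKM at FBD, 17.9 at YA, 24.1 at VCA, 132 at EFS, 113 at FBS and 7.02 at SFS. CL6933.Contig1 had 0.15 FPKM at FBD, 34.0 at YA, 18.5 at VCA, 0.10 at EFS, 47.8 at FBS and 54.3 at SFS. Contig2 held 34.5% of the cluster in YA, 56.6% at VCA, 99.9% at EFS, 70.3% at FBS and 11.4% at SFS. Their sum was 0.57 FPKM at FBD, 52.0 at YA, 42.6 at VCA, 132 at EFS, 161 at FBS and 61.3 at SFS. How reads were divided between these similar contigs was not tested. Without Contig2, the SFS over FBS ratio of the whole family was log2 0.12.

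UCP1 was highest in the closed buds. Uncoupling protein 1 is the main plant uncoupling protein in Arabidopsis, where it also carries aspartate and glutamate. Its 16 unigenes summed to 61.4 FPKM at FBD, 59.1 at YA, 63.5 at VCA, 48.6 at EFS, 31.5 at FBS and 31.6 at SFS. SFS over YA was log2 -0.90, less than 2-fold, and 0.06 with actin scaling.

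Within UCP1, the contigs again differed. CL26875.Contig1 was listed at 0 at FBD and had 35.1 FPKM at YA, 32.2 at VCA, 17.8 at EFS, 0.23 at FBS and 0.74 at SFS. CL26875.Contig2 had 0.20 at FBD, 13.7 at YA, 20.5 at VCA, 23.1 at EFS, 25.7 at FBS and 16.8 FPKM at SFS. As a cluster they reached 0.20 FPKM at FBD, 48.8 at YA, 52.7 at VCA, 40.9 at EFS, 26.0 at FBS and 17.5 at SFS. Contig1 fell out at full bloom while Contig2 stayed within 2-fold of its VCA level in every later stage, and the cluster sum fell in SFS over YA (log2 -1.47). Unigene14389, outside that cluster, was listed at 0 at FBD and had 7.05 FPKM at YA, 8.72 at VCA, 3.59 at EFS, 3.48 at FBS and 11.7 at SFS. It was the only UCP1 unigene among those tested to rise in SFS over FBS, by 3.29-fold (log2 1.72).

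**Figure D2:**
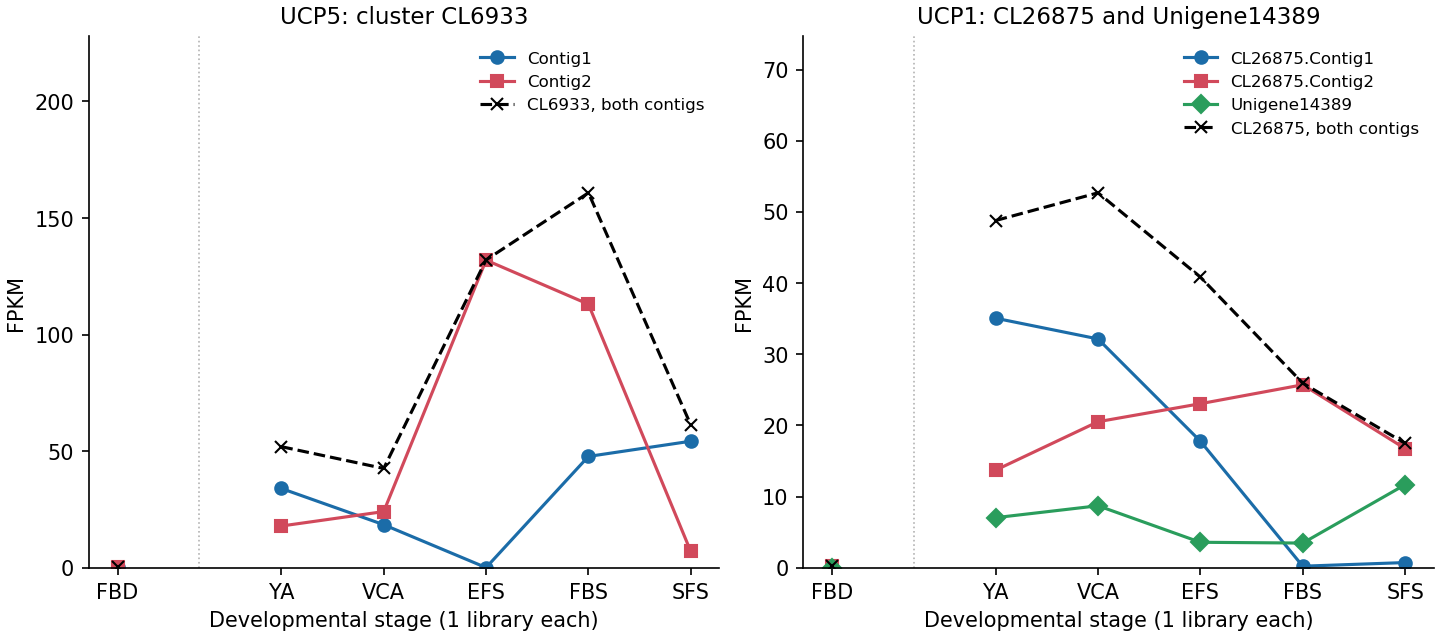
FPKM (linear axes) of the highest uncoupling protein contigs against developmental stage, UCP5 on the left and UCP1 on the right, with FBD left of the dotted line, each point 1 library and the dashed line the sum of the 2 contigs of a cluster. CL6933.Contig1 was at 0.10 FPKM at EFS, where CL6933.Contig2 was at 132, and CL26875.Contig1 was at 0.23 at FBS, where CL26875.Contig2 was at 25.7.

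The remaining uncoupling protein unigenes were low from YA on. UCP3 had 1 unigene of the later stages, Unigene10674, which was listed at 0 at FBD and had 1.82 FPKM at YA, 2.87 at VCA, 1.72 at EFS, 0.40 at FBS and 0.40 at SFS. It fell to 0.27-fold in FBS over EFS (log2 -1.86). The 10 contigs of cluster CL1860, named UCP1 by Swiss-Prot, lay between 0 and 1.89 FPKM in every library. In the Nr database they are called ucpB, a substrate carrier, except CL1860.Contig7, which is called a hypothetical protein. UCP2 was represented by CL28707.Contig2, at 0.59 FPKM at FBD and 0 elsewhere.

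Member counts outside full bloom were small. In VCA over YA, 0 of 13 tested members rose and 2 fell, where 30.0% of all 72356 tested unigenes rose and 31.8% fell. In EFS over VCA, 4 of 14 rose and 2 fell, beside 28.0% and 38.3% of 68148. The 4 that rose were CL992.Contig1, CL6933.Contig2, CL1860.Contig4 and CL1860.Contig10, and those that fell were Unigene14389 and CL6933.Contig1. Of these, CL992.Contig1 is a weakly matched AOX1c contig, and the CL1860 contigs reached at most 1.89 FPKM. The CL6933 contigs belong to the same cluster, whose sum rose (log2 1.63).

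The uncoupling proteins were split in FBS over EFS. Of 8 tested uncoupling proteins, 1 rose and 4 fell, with a median log2 ratio of -0.98, where the background was 33.1% and 32.5%. The riser was CL6933.Contig1, and CL26875.Contig1, Unigene10674, CL1860.Contig4 and CL1860.Contig10 fell. Of these, Unigene10674 was at 1.72 FPKM at EFS, and the CL1860 contigs reached at most 1.89 FPKM. The cluster sums of CL6933 and CL26875 changed by less than 2-fold, at log2 0.28 and -0.65. In SFS over FBS, 2 of 10 members rose and 3 fell, beside 29.1% and 35.8% of 63184 unigenes. CL18079.Contig4 and Unigene14389 rose, and CL18079.Contig1, CL992.Contig1 and CL6933.Contig2 fell. In SFS over YA, 4 of 7 alternative oxidases rose and 2 fell, 0 of 6 uncoupling proteins rose and 3 fell, and over 69437 unigenes 29.1% rose and 46.8% fell. The 4 that rose were the 3 AOX1a contigs and Unigene24328 (AOX2), and the 2 that fell were the weakly matched AOX1c contigs. For SFS over YA the median log2 ratio was 1.30 in the alternative oxidases, -0.53 in the uncoupling proteins and -0.78 in all unigenes.

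Both families consisted of 1 set of unigenes for FBD and another for the later stages. Of 27 members with at least 1 FPKM on either side, 14 had an FBD value at least 20-fold above their mean over the other 5 stages, 13 had one at least 20-fold below it, and none lay between. This is also how the whole table behaved, with 52.1% of 101053 unigenes on the FBD side and 46.4% on the other. The 14 members on the FBD side held 98.4% of the alternative oxidase FPKM and 98.6% of the uncoupling protein FPKM of the FBD library. In the other 5 stages, none of these 14 exceeded 0.27 FPKM.

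Most types also had a unigene on the FBD side. For AOX2 these were Unigene158816 at 21.2 FPKM and Unigene127528 at 12.9 FPKM, and for PTOX Unigene116311 at 12.2 FPKM, each listed at 0 in the other 5 stages. UCP1 had CL28707.Contig1 at 59.3 FPKM at FBD and at most 0.08 elsewhere. The UCP5 counterparts were the 4 contigs of cluster CL15574, at 17.8, 14.6, 5.97 and 3.78 FPKM, together with Unigene116256 at 11.6. By name, AOX1a was the exception among the well matched types, with no unigene on the FBD side and 0.22 FPKM in that library. However, InterPro puts Unigene127528, named AOX2, in the same subfamily as the AOX1a contig CL18079.Contig1. The isoform of the FBD unigenes was not tested beyond these annotations. UCP3 had 4 FBD unigenes between 1.57 and 4.67 FPKM, and the last of the 14 was CL26750.Contig1, named UCP1, at 1.39 FPKM.

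**Figure D3:**
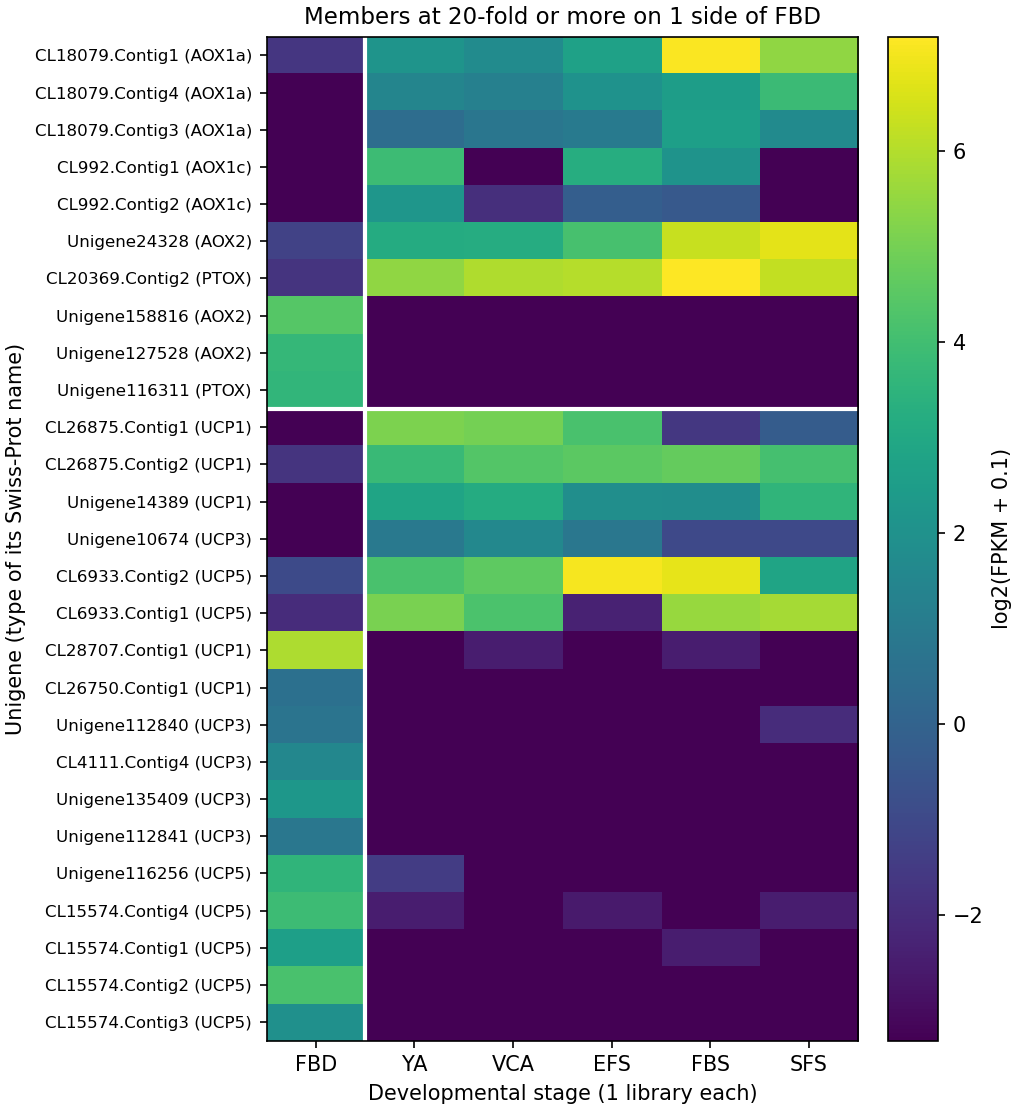
Colour shows log2(FPKM + 0.1) of the 27 members whose FBD value differed at least 20-fold from their mean over the other 5 stages, with 1 row per unigene and 1 column per library, alternative oxidases above the white line and uncoupling proteins below it. The 14 FBD-side unigenes are bright only in the left column, the other 13 are dark there, and no FBD-side row has the AOX1a name.

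The rest of the respiratory chain was set beside the families by lists of Swiss-Prot names. Most of it stayed within 2-fold from YA to SFS. Complex I (131 unigenes), which oxidises NADH, summed to 2227 FPKM at FBD, 4318 at YA, 4270 at VCA, 4833 at EFS, 5003 at FBS and 4940 at SFS. Complex IV (34 unigenes), the oxidase that alternative oxidase bypasses, summed to 757 FPKM at FBD, 1357 at YA, 1362 at VCA, 1627 at EFS, 1379 at FBS and 1502 at SFS. ATP synthase (50 unigenes) summed to 2346 FPKM at FBD, 2492 at YA, 2668 at VCA, 2380 at EFS, 1931 at FBS and 2037 at SFS, and its FBS over EFS ratio of log2 -0.30 turned positive with actin scaling. Complex III (31 unigenes) lay between 1275 and 1515 FPKM from YA on.

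Complex II was the exception, and its sum as deposited had its maximum at full bloom, as the alternative oxidase sum did. This complex is succinate dehydrogenase, which feeds electrons from succinate into ubiquinone, the substrate pool of alternative oxidase. Its 10 unigenes summed to 155 FPKM at FBD, 349 at YA, 354 at VCA, 522 at EFS, 1529 at FBS and 1034 at SFS. The sum rose 2.93-fold in FBS over EFS (log2 1.55). In SFS over FBS it was log2 -0.57 as deposited and 0.03 with actin scaling, so its highest stage depended on the scaling. For the alternative oxidase sum the same ratios were -0.65 and -0.06. Of 6 tested unigenes, 5 were higher and none lower, beside 33.1% and 32.5% of all unigenes. The iron-sulfur subunit Unigene30344 had 2.09 FPKM at FBD, 140 at YA, 135 at VCA, 228 at EFS, 726 at FBS and 585 at SFS, and the flavoprotein subunit CL24562.Contig3 had 1.67 at FBD, 110 at YA, 112 at VCA, 152 at EFS, 385 at FBS and 232 FPKM at SFS.

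Cytochrome c rose as well, by less. The 9 unigenes of this electron carrier between complexes III and IV summed to 204 FPKM at FBD, 203 at YA, 189 at VCA, 199 at EFS, 415 at FBS and 340 at SFS. FBS over EFS was 2.09-fold (log2 1.06, and 0.98 after scaling by the whole chain), at the limit. The unigenes were split, with 3 of 6 higher and 2 lower, beside 33.1% and 32.5% of all unigenes. CL15480.Contig5 carried most of the sum, at 0.96 FPKM at FBD, 170 at YA, 163 at VCA, 147 at EFS, 395 at FBS and 316 at SFS.

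The carriers that export ATP from mitochondria had lower sums at the late stages. ADP,ATP carriers are relatives of the uncoupling proteins, and their 39 unigenes summed to 1097 FPKM at FBD, 1016 at YA, 1105 at VCA, 984 at EFS, 553 at FBS and 437 at SFS. The sum fell in SFS over YA (log2 -1.22), by less than 2-fold after scaling by actin or by the median ratio, and FBS over EFS was log2 -0.83. In FBS over EFS, 5 of 21 tested unigenes rose and 7 fell, and the share that fell was close to the 32.5% of all unigenes. The highest, CL2082.Contig3, had 2.49 FPKM at FBD, 584 at YA, 685 at VCA, 700 at EFS, 453 at FBS and 301 at SFS. The next, Unigene30886, had 0.20 FPKM at FBD, 197 at YA, 176 at VCA, 131 at EFS, 19.9 at FBS and 18.0 at SFS.

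The other non-phosphorylating route into the chain stayed within 2-fold as a sum from YA on. The 47 alternative NAD(P)H dehydrogenases, which pass electrons to ubiquinone without pumping protons and so pair with alternative oxidase in a fully non-phosphorylating route, summed to 149 FPKM at FBD, 339 at YA, 303 at VCA, 262 at EFS, 328 at FBS and 247 at SFS. Of 28 tested, 11 rose and 5 fell in FBS over EFS, beside 33.1% and 32.5% of all unigenes. In SFS over FBS, 2 of 28 rose and 12 fell, beside 29.1% and 35.8%. Among them the C1 type, which Arabidopsis sends to plastids and mitochondria, summed to 19.8 FPKM at FBD, 59.2 at YA, 39.4 at VCA, 57.3 at EFS, 101 at FBS and 71.1 at SFS. Manganese superoxide dismutase and prohibitins (20 unigenes), proteins of mitochondrial redox balance and membrane upkeep, summed to 769 FPKM at FBD, 411 at YA, 435 at VCA, 297 at EFS, 236 at FBS and 176 at SFS. This list fell in SFS over YA (log2 -1.23), by less than 2-fold after scaling by actin or by the median ratio.

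**Figure D4:**
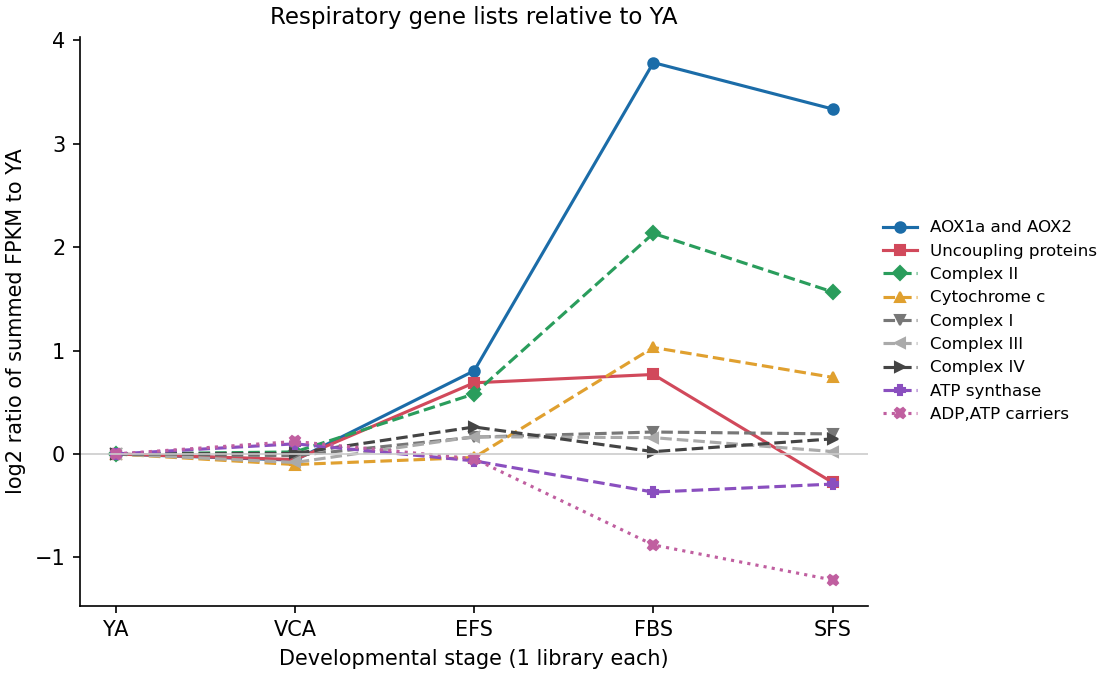
Log2 ratio of summed FPKM to the YA library (vertical axis) for the members (solid lines) and other respiratory lists (dashed and dotted) in the 5 stages from YA to SFS (horizontal axis), each point 1 library. AOX1a and AOX2 reached 3.78 at FBS and complex II reached 2.13, while ADP,ATP carriers were at -1.22 at SFS.

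Relative to ATP synthase, the mitochondrial alternative oxidases with strong matches gained at full bloom. AOX1a and AOX2 together had 14.8 FPKM per 1000 FPKM of ATP synthase in FBD, 6.76 at YA, 6.06 at VCA, 12.4 at EFS, 121 at FBS and 83.9 at SFS. FBS was 17.9-fold above YA on this scale. Per 1000 FPKM of complex IV they had 45.7 at FBD, 12.4 at YA, 11.9 at VCA, 18.1 at EFS, 169 at FBS and 114 at SFS, a 13.6-fold difference of FBS over YA. The uncoupling proteins had 54.2 FPKM per 1000 FPKM of ATP synthase in FBD, 45.4 at YA, 40.9 at VCA, 76.6 at EFS, 99.9 at FBS and 45.9 at SFS, 2.20-fold higher in FBS than in YA. Relative to complex IV they were 1.68-fold higher, and relative to the phosphorylating chain 1.46-fold, both under 2-fold. General housekeeping genes fell in SFS over YA (log2 -1.59), but by less than 2-fold if scaled by actin, which adds 0.96. Actin scaling is not independent of this list, which itself includes actin, such as Unigene20119 (Actin-7). The 169 housekeeping unigenes summed to 9597 FPKM at FBD, 9493 at YA, 9392 at VCA, 8278 at EFS, 4761 at FBS and 3149 at SFS. The part of this fall in the ratios was not tested.

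Some named unigenes outside the families had nearly the same profile over the 5 stages from YA to SFS. Likeness was measured as the root mean square difference of centred log2(FPKM + 0.1) values, over 11659 candidates with at least 10 FPKM in 1 stage. Closest to the alternative oxidase sum was CL20893.Contig2, a chloroplast ATP synthase delta chain, at a difference of 0.089, with 49.7 FPKM at YA, 55.7 at VCA, 74.0 at EFS, 281 at FBS and 184 at SFS. Next came Unigene48808 (an ILR1-like hydrolase of auxin conjugates), with a difference of 0.16 and 16.9 FPKM at FBS, against 5.79 at EFS, and Unigene21088 (a member of the NRT1/PTR transporter family), also at 0.16, with 102 FPKM at FBS, against 25.1 at EFS. For the alternative oxidases, 11 candidates lay within 0.2.

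The uncoupling protein sum had more neighbours, 31 of 11658 within 0.2, and its profile is also the flatter one. The closest were CL10682.Contig3 (FAB1A, a phosphatidylinositol phosphate kinase) at 0.057, CL8808.Contig2 (the protein kinase HT1) at 0.066 and CL15248.Contig3 (a CCCH zinc finger protein) at 0.082. CL10682.Contig3 had 8.75 FPKM at YA, 9.36 at VCA, 15.6 at EFS, 16.2 at FBS and 8.01 at SFS. With 5 libraries, such likeness describes these profiles and carries no test.

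Other annotations of the members differed in how well they matched the names. Of the 10 alternative oxidases, 8 had the alternative oxidase family or domain in InterPro, and no unigene outside the members had it. Of the 29 uncoupling proteins, 27 had an E-value of at most 1e-20 and 16 were also called uncoupling proteins in Nr, while 11 were called ucpB there. A UCP3 unigene of FBD, CL4111.Contig4 (2.82 FPKM at FBD, 0 elsewhere), was called a universal stress protein by Nr, KOG and InterPro.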

How the data were processed

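RNA of floral organs was sequenced at 6 stages, 1 library each. The authors extracted RNA with Trizol, assembled the reads with Trinity without a genome, clustered contigs into unigenes, matched these to Nr, Swiss-Prot, KEGG, KOG and InterPro, and calculated FPKM with RSEM. The deposited table holds these FPKM to 2 decimals for 190353 unigenes. For these tools, versions are not given in the sources used, and neither are read numbers, so counting error is unknown, and relative depth was estimated from low FPKM (0.2 to 2). The table holds no sequences, and none is shown.

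Members and lists were taken by Swiss-Prot name, and they were chosen with earlier results of these data known. FPKM were summed per family, type and contig cluster. Ratios used log2(FPKM + 0.1), for unigenes reaching 1 FPKM in one or both libraries, with a 2-fold threshold. FBD was set against the mean of the other 5 stages at 20-fold. No p-value was calculated. Named members reached 5 FPKM somewhere, with the 2 highest unigenes of each list at most and the 3 most like each family. Members below 5 FPKM were named where they made up a count. Alternatives were other pseudocounts, filters and thresholds, 4 scalings (total, median ratio, actin, the phosphorylating chain), leaving out the top unigene, and other member rules. The steps were tested on simulated data. Python 3.11.15, numpy 2.4.6 and pandas 2.3.3 were used.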

Additional observations from a re-analysis of the deposited data

Results flagged for a closer look

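A strong signal lay under the same KEGG orthology as the alternative oxidases but outside the members. The term K17893 (ubiquinol oxidase) was given to 9 members and to 7 other unigenes, which Swiss-Prot names plastid-lipid-associated or light-induced proteins, structural proteins of plastid lipid bodies. The 7 summed to 71.3 FPKM at FBD, 5299 at YA, 3807 at VCA, 6115 at EFS, 3957 at FBS and 2950 at SFS, where the 9 members with the term summed to 47.0, 74.7, 77.5, 103, 384 and 245 FPKM in the same order. From YA on, between 91.2% and 98.6% of the FPKM under this term was therefore not from unigenes named oxidases. The highest was CL4162.Contig2, at 8.65 FPKM at FBD, 2696 at YA, 2260 at VCA, 3831 at EFS, 2061 at FBS and 1504 at SFS. None of the 7 has the alternative oxidase domain in InterPro.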

How the results depend on the processing

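Of the values recomputed, 119 kept their sign and side of the threshold (counts: within 1.5 times). Another 13 changed sign while both values were under 2-fold: the alternative oxidases in VCA over YA (0.0038 by median ratio, 0.37 without the weakly matched AOX1c, by E-value or InterPro), and the uncoupling proteins in VCA over YA (0.12), EFS over VCA (-0.40) and FBS over EFS (-0.65) with UCP1 to UCP3 names only or by KEGG orthology, in EFS over VCA without CL6933.Contig2 (-0.75), in FBS over EFS by the phosphorylating chain (-0.0064), and in SFS over YA by median ratio (0.18) and actin (0.68). The rest follow. Without PTOX, which is both the top unigene and the only plastid name expressed after FBD, the alternative oxidase log2 ratio was -1.13 in VCA over YA (main -0.03) and 1.27 in EFS over VCA (main 0.41). For AOX1a and AOX2 alone, without the weakly matched AOX1c contigs, these ratios were -0.06 and 0.86, both less than 2-fold. Taking members by InterPro or KEGG orthology added the plastid-lipid-associated proteins and turned FBS over EFS to -0.52 and SFS over YA to -0.75. The uncoupling protein ratio of SFS over FBS (main -1.04) was -0.86 by median ratio, -0.45 by actin and -0.98 by the phosphorylating chain. It turned to 0.12 without CL6933.Contig2, and to 0.0072 both by KEGG orthology and with UCP1 to UCP3 names only, which leaves UCP5 out. Members changed 2-fold numbered 2 (VCA over YA), 6 (EFS over VCA), 10 (FBS over EFS), 5 (SFS over FBS) and 9 (SFS over YA). With no filter these counts were 10, 11, 16, 14 and 16, with an FPKM filter of 5 the first was 1, and with FPKM summed per contig cluster, an alternative chosen after seeing the data, VCA over YA gave 1, EFS over VCA 3, and FBS over EFS and SFS over YA 5 each. No paired analysis was possible because each stage has 1 library. The read number behind low FPKM is unknown, and values of 0 are listed values only.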

Other observations

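Contigs of 1 cluster also alternated between stages among the plastid-lipid-associated proteins that share the KEGG term of the oxidases. CL4162.Contig7 had 4.42 FPKM at FBD, 2517 at YA, 521 at VCA, 6.73 at EFS, 1431 at FBS and 1207 at SFS, and CL4162.Contig1 had 2.96 at FBD, 27.3 at YA, 970 at VCA, 2233 at EFS, 427 at FBS and 188 FPKM at SFS. EFS was the low stage of Contig7, as it was for the UCP5 contig CL6933.Contig1 at 0.10 FPKM. These pairs were noticed in the data, and how reads were divided between the contigs was not tested.

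The alternative dehydrogenases had members seen almost only in FBD, beside those of the later stages, as the whole table did. Of all 101053 unigenes tested, 52.1% lay on the FBD side and 46.4% on the other. The B3 type summed to 12.3 FPKM at FBD and 0 elsewhere, and the A2 type to 21.7 FPKM at FBD and at most 0.10 elsewhere. The B1 type, which oxidises NADPH outside the inner membrane in Arabidopsis, summed to 45.3 FPKM at FBD, 24.3 at YA, 35.0 at VCA, 15.6 at EFS, 16.9 at FBS and 10.3 at SFS. This sum joins different unigenes, since the B1 contigs that reached 5 FPKM after FBD had at most 0.08 FPKM at FBD.

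Prohibitin 3, a scaffold protein of the inner mitochondrial membrane, fell late. Its 6 unigenes summed to 209 FPKM at FBD, 146 at YA, 152 at VCA, 99.0 at EFS, 76.2 at FBS and 14.4 at SFS.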
